A study of Mus musculus with 18 samples.

Results

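These 273 bins of 500 bp carry captured methylated DNA in hindlimb muscle and almost none in T cells of the spleen. Members were chosen by their own signal: normalized MBD-seq counts of 40 or more in both 2-month (2 m) and 20-month (20 m) muscle, and of 4 or less in both 2-m and 20-m T cells. They are 273 of the 4783931 bins on the 19 autosomes, and of 5128560 bins in the whole table. The 2-m and 20-m values therefore describe the selection and are not results, whereas position, sequence, the 28-month (28 m) libraries and muscle RNA did not enter it. The signal is methylated DNA only, and the openness of chromatin was not measured.

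The material came from female C57BL/6J mice of 2, 20 and 28 months with no other treatment, and the 3 mice of an age were pooled into 1 DNA sample per tissue. Splenic T cells were obtained by magnetic sorting, and muscle was powdered whole, so that it holds the nuclei of fibres together with those of vessels, connective tissue and resident leukocytes. Muscle RNA was sequenced from the same 3 mice of each age one by one (9 libraries). The MBD-seq libraries held 135254786 to 141889499 reads on bins in muscle and 188758989 to 200456498 in T cells, and 1 read was worth 0.637 to 1.32 normalized counts, so the limit of 4 was 3 reads in T cells and the limit of 40 was 44 reads in 2-m and 48 in 20-m muscle. The table has 1 column per tissue and age, and for muscle, with 2 captures per age in the labels, it does not say which capture the column holds. No test between ages or tissues was therefore made on MBD-seq values.

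MBD-seq retains fragments with methylated CpGs, so a region that is rich in CpGs and yields no reads is unmethylated, or carries too little methylation for capture. Most CpGs of the mammalian genome are methylated in all tissues. Exceptions that differ between cell types lie at promoters without dense CpG islands and at enhancers, which lose methylation where they are bound and used. In T cells and other leukocytes, RUNX and ETS factors occupy many such elements.

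The sequences of the longest runs of adjacent member bins show what kind of DNA this is, with each CpG in capitals. Each is the middle 300 bases of the bin with most CpGs among those bins of the run that touch no untranslated exon (GRCm38, plus strand). In the Arhgap45 and Taok3 runs a bin left out for that reason had more CpGs (12 and 16). They are shown for 4 of the 5 longest runs, since every bin of the run at Arhgap30 touches an untranslated exon.
Arhgap45, chr10:80017101-80017400, within 1 kb of the gene start: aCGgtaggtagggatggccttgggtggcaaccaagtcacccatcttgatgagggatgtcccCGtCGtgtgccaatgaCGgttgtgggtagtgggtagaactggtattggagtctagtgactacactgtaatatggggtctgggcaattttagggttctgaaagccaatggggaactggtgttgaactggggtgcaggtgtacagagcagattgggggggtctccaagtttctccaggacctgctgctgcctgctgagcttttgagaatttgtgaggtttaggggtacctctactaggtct
Lcp1, chr14:75179601-75179900, intron: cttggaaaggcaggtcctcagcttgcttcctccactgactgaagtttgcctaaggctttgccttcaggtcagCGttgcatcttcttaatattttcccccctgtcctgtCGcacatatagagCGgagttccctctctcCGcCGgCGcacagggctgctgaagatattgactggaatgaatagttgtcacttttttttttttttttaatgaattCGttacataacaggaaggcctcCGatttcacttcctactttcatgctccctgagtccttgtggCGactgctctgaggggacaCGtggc
Cytip, chr2:58159601-58159900, intron: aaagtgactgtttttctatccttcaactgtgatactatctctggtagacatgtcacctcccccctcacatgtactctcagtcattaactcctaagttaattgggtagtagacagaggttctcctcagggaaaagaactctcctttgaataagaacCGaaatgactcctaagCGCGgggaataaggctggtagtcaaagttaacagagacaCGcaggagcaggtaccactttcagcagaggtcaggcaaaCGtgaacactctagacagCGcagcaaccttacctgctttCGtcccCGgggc
Taok3, chr5:117134101-117134400, intron: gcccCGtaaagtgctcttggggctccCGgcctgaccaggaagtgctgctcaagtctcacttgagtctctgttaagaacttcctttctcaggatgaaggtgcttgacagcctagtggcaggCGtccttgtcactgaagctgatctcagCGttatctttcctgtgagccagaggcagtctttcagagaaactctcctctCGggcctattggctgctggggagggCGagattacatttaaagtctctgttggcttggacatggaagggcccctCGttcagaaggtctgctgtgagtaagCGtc
These stretches hold 4, 10, 8 and 8 CpGs. The whole bins they come from hold 10, 16, 14 and 13 CpGs.

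Most members stood alone. The 273 bins formed 248 runs of adjacent bins, of which 226 were single bins, 20 were pairs, 1 had 3 bins and 1 had 4. Thus 17.2% of the member bins lay in runs of 2 or more. By comparison, 56.7% of the 389967 bins with 40 or more in both tissues at 2 and 20 m lay in such runs, the longest being 78 bins, and 9.7% of the 433 bins with the reverse rule (T cells 40 or more, muscle 4 or less). A further member within 10 kb was found for 20.9% of members and within 100 kb for 24.5%. Members lay on every autosome, with 0.286 per 10000 bins on chromosome 18 and 1.14 per 10000 on chromosome 11, which had the most (27).

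The longest run covered the start of Arhgap45, a GTPase-activating protein of blood cells (chr10:80016501-80018500, 4 bins). From 2 to 28 m, its mean count per bin was 74.6, 47.4 and 26.5 for muscle and 0.254, 0 and 2.97 for T cells. The second run lay in an intron of Lcp1, which encodes the leukocyte actin-bundling protein L-plastin (chr14:75178501-75180000, 3 bins). Muscle means per bin were 60.3, 61.2 and 24.4, and T-cell means 0.677, 0 and 1.76. Lcp1 held 2 more members within the next 3 kb and was the gene with most members (5). In both runs the 28-m muscle value was below those of the younger pools and still above every T-cell value.

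Among the pairs, the 3 with most muscle signal lay in Cytip, in Taok3 and at the start of Arhgap30. Cytip encodes a partner of cytohesins that restrains leukocyte adhesion (chr2:58159501-58160500). Its muscle means were 79.1, 85.5 and 34.7 and its T-cell means 1.52, 1.22 and 1.32 from 2 to 28 m. The pair in the kinase gene Taok3 (chr5:117133501-117134500) had muscle means of 74.6, 66.5 and 33.1 and T-cell means of 1.02, 1.83 and 0. For the pair at Arhgap30, another GTPase-activating protein (chr1:171388501-171389500), the muscle means were 72.3, 65.3 and 44.0 and the T-cell means 1.02, 0.608 and 2.64. The Arhgap30 pair kept most signal in 28-m muscle among these 5 runs.

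Genes with most members after Lcp1 (5) and Arhgap45 (4) were Arhgap25, a Rac GTPase-activating protein, with 3, and then, ordered by muscle signal, Cytip, Ripor2, Psd4, Taok3, Rasa3, Kcnab2 and Zfp697 with 2 each. Psd4 is an exchange factor for ARF6, Rasa3 a GTPase-activating protein for Ras and Rap, Kcnab2 a potassium channel subunit and Zfp697 a zinc finger protein. In all, 186 annotated genes held a member, 150 of them protein coding (0.73% of 20558 such genes on the autosomes) and 36 long non-coding. A single member was the rule, in 166 of the 186.

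Member bins lay close to gene starts more often than other methylated bins. By the midpoint of the bin, 51 of 273 (18.7%) were within 1 kb of an annotated gene start, 42 (15.4%) were exonic, 121 (44.3%) intronic and 59 (21.6%) intergenic. Within 1 kb of a start lay 2.86% of bins high in both tissues, 2.83% of all autosomal bins and 13.2% of the reverse bins. The median distance to a gene start was 8580 bp for members, 21521 bp for bins high in both tissues and 31714 bp for all bins. Both bin sets that differ between the tissues thus shared the position near gene starts (the reverse bins had a median of 9985 bp).

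**Figure D1:**
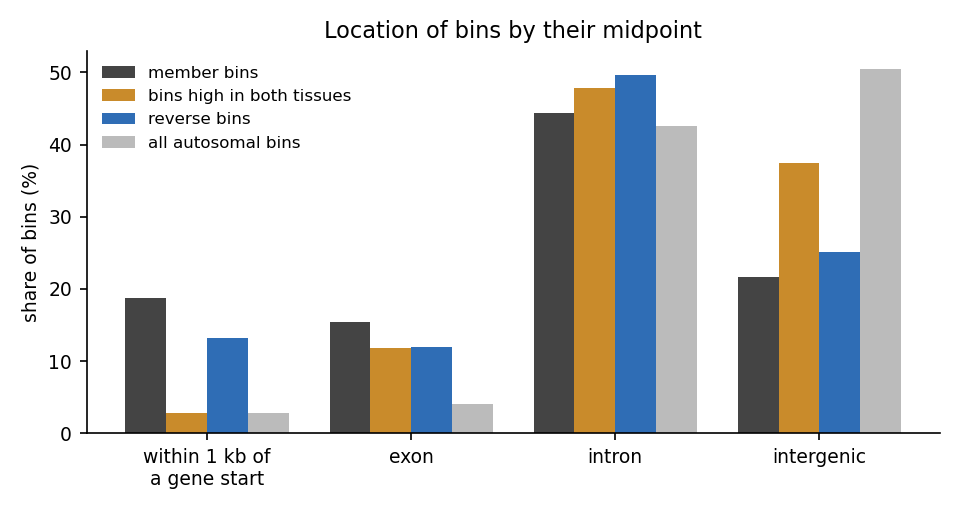
Share of bins (y axis, %) within 1 kb of a gene start, in exons, in introns and between genes (x axis) for the member bins, bins high in both tissues, the reverse bins and all autosomal bins. Member bins near a start reach 18.7% against 2.86% of bins high in both tissues.

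Genes used by leukocytes in general often held a member. From a list of 26 genes used by most leukocytes, 25 are autosomal and 14 of these (56%) held at least 1 member, against 0.73% of all protein-coding genes. The list was drawn up with earlier results of these data known, so this share is no independent evidence. These were Ptprc, Itgal, Dock2, Dock8, Inpp5d, Vav1, Lcp1, Cd48, Laptm5, Runx1, Arhgap45, Stk10, Cytip and Ptpn22. They held 22 members, 9 of them within 1 kb of a start and 11 in introns. Of the 851 bins with 40 or more in muscle at 2 and 20 m in the bodies of the 25 genes, 2.59% were members. In all gene bodies together that share was 0.0702%.

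The genes that define T cells held no member, a count that the share over all genes (0.73%) gives for a list of this size as well. Of 40 T-cell genes, including the CD3 chains, co-receptors and signalling genes of the T-cell receptor, 39 are autosomal and 0 held a member, also when the genes were extended by 5 kb. Their bodies held 734 bins with 40 or more in muscle at both ages, and the median of these in 2-m T cells was 47.7 counts. In 4.09% of those bins both T-cell values were below 20, compared with 7.4% in the leukocyte list and 0.578% over all gene bodies. The lists of B-cell genes gave 1 gene with a member (Blk, a Src-family kinase, of 11), and those of macrophage and myeloid (12), skeletal muscle (24), endothelial (7), fibroblast (6) and adipocyte genes (5) gave none.

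The antigen receptor loci, which T and B cells rearrange, held no member either, and with members at 0.0596% of all muscle-high bins a count of 0 is near the background for loci of this size. In the T-cell receptor alpha and delta locus (chr14:52427967-54224198), 236 bins had 40 or more in muscle at 2 and 20 m. The median of these bins in T cells was 53.3, 70.6 and 85.9 counts from 2 to 28 m. In the beta locus (chr6:40891296-41558371) 46 bins were high in muscle, with T-cell medians of 45.2, 67.5 and 68.7. The gamma locus had 9 such bins and the 3 immunoglobulin loci 142 (heavy), 301 (kappa) and 18 (lambda). In 2-m T cells the median of the muscle-high bins was 36.5 in the gamma locus and 76.1 to 85.8 in the immunoglobulin loci.

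At single starts, the bin at Itgal (alpha chain of the integrin LFA-1, chr7:127296501-127297000) had 68.2, 49.7 and 25.5 counts in muscle from 2 to 28 m and 0 reads in each of the 3 T-cell libraries. The bin at Inpp5d, the inositol phosphatase SHIP1 of blood cells (chr1:87620501-87621000), had 70.0, 49.7 and 38.2 counts in muscle and again no T-cell read. A count of 0 allows up to 3 reads, or 3.05, 3.65 and 3.97 counts in the 2-m, 20-m and 28-m T-cell libraries. At 28 m muscle lay above this limit in both bins. In all, 16 members (5.86%) had no read in any T-cell library, beside 135 to 222 reads in the 3 muscle libraries together, and 6 of the 16 lay within 1 kb of a start.

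Other starts were those of Dock2 and Vav1, which activate Rac in lymphocytes, of Cd48, a ligand of the SLAM family, and of the transcription factor Runx1. Dock2 (chr11:34783501-34784000) had 81.9, 75.8 and 28.7 counts in muscle and 0, 2.43 and 0 in T cells. At Vav1 (chr17:57279001-57279500) the muscle values were 88.2, 51.4 and 27.4 and the T-cell values 2.03, 0 and 7.93. Cd48 (chr1:171681501-171682000) gave 61.9, 53.0 and 31.9 in muscle and 1.02, 0 and 5.29 in T cells. Runx1 (chr16:92825501-92826000) gave 69.1, 64.0 and 40.8 in muscle and 1.02, 2.43 and 2.64 in T cells, and the adjacent bin upstream was also a member. In Dock8, an exchange factor for Cdc42, the member was intronic (chr19:25052501-25053000), with 62.8, 48.8 and 21.03 in muscle and 0, 2.43 and 0 in T cells. At 28 m, the age not used in the choice, muscle was above T cells in each of these bins. Vav1 and Runx1 were chosen for description after their values were seen.

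Other members within 1 kb of a start, named here after their values were seen and not on any list, lay at Slamf6, Cd37, Cd96, Pik3cg, Pik3r5, Nckap1l, Fermt3 and Unc13d, which are known from leukocytes, and also at Hnrnpf, Pfas, Rab19 and H2bc7 and at several long non-coding genes. They were not counted by function.

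In sequence, members were richer in CpGs than most bins and seldom mostly repeat. The median was 11 CpGs per bin (5th to 95th percentile 6 to 18), compared with 10 in bins high in both tissues and 3 over all autosomal bins. Their GC content was 50.2%, against 47.8% and 41.8%. Only 2 members (0.733%) were repeat-masked over 50% or more of their length, while 22.6% of bins high in both tissues were. The reverse bins were much like the members, with a median of 10 CpGs, a GC content of 52% and 1.39% masked to that extent. The lowest member held 2 CpGs and the highest 68.

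Letters of RUNX and ETS motifs were more frequent in members than in the other sets. The RUNX letters TGTGGTT were present on either strand in 68 members (24.9%), in 9.59% of bins high in both tissues, in 6% of reverse bins and in 11.4% of all autosomal bins of the same length. The ETS letters AGGAAGT were present in 101 members (37%), compared with 10.4, 13.4 and 11.7% of the same sets. One or the other was in 144 members (52.7%) and both in 25 (9.16%), against 19% and 1.02% of bins high in both tissues. With 6 or more CpGs, 10.9% of all bins held the RUNX letters and 11.5% the ETS letters. Outside the 1-kb windows at gene starts, the shares in members were 26.6% for RUNX and 38.3% for ETS. They were 17.6% and 31.4% for the 51 members near starts.

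The other motifs differed less. The AP-1 letters TGANTCA were in 18.7% of members and 12.8% of bins high in both tissues. For the E-box letters CAGCTG these shares were 26.4 and 23.5%. The TCF and LEF letters CTTTGAT were found in 6.23 and 6.96%, and the GATA letters AGATAAG in 6.23 and 5.66%. The MEF2 motif was present in 8.06 and 6.61%. In the reverse bins the most frequent was the E-box, with 44.8%. A match describes the letters of a bin and says nothing about binding.

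**Figure D2:**
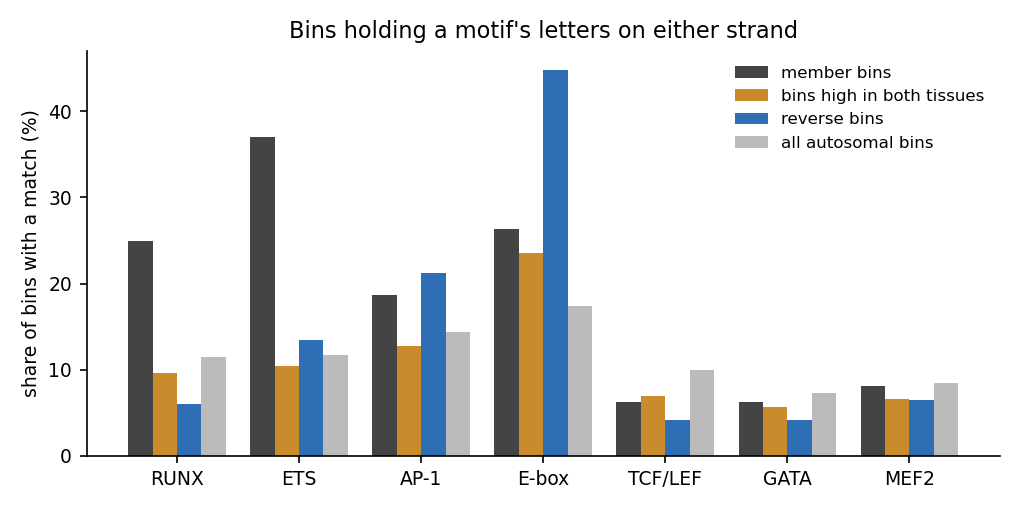
Share of 500-bp bins (y axis, %) that hold the letters of each motif (x axis) on either strand, for 4 sets of bins. RUNX and ETS letters are most frequent in the member bins (24.9 and 37%), and the E-box in the reverse bins (44.8%).

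Of the 22 members in leukocyte-list genes, 11 (50%) held RUNX or ETS letters. The windows below are taken from those of their bins that touch no untranslated exon, with the motif in capitals and up to 20 bases on each side (GRCm38, plus strand). The first 2 overlap in the 3-bin run of Lcp1, and the Ptprc window lies in an intron of the gene for CD45, in a bin whose midpoint is 1006 bp from the gene start.
Lcp1, RUNX, chr14:75178941-75178987: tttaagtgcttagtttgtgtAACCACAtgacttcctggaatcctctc
Lcp1, ETS, chr14:75178950-75178996: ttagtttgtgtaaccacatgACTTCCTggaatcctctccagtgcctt
Ptprc, ETS, chr1:138174964-138175000: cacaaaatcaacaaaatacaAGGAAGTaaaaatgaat
Stk10, ETS, chr11:32587710-32587756: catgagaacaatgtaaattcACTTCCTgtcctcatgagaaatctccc
The Ptprc bin had 40.9, 53.0 and 31.9 counts in muscle and 0, 0 and 1.32 in T cells. That of Stk10, a kinase of lymphocytes, had 42.8, 44.6 and 22.3 in muscle and 2.03, 2.43 and 6.61 in T cells.

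Neighbouring bins were used by the rule only where they are members themselves, which holds next to 47 of the 273 members, and these were kept in the medians. As a whole, the bins next to a member were low in T cells and near the level of their surroundings in muscle. At 2 m the median of the bins next to a member was 24.6 counts on one side and 28.2 on the other in muscle, and 2.03 on both sides in T cells. At 1 kb the medians were 22.7 and 21.8 in muscle and 7.11 and 6.09 in T cells. At 10 kb they were 22.7 and 18.2 in muscle and 20.3 and 14.2 in T cells. Adjacent bins share fragments, so the nearest values are not fully independent of the member. T cells were below muscle at 2 m in 261 and 252 of 273 bins at 0.5 kb, and in 132 and 143 at 10 kb.

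**Figure D3:**
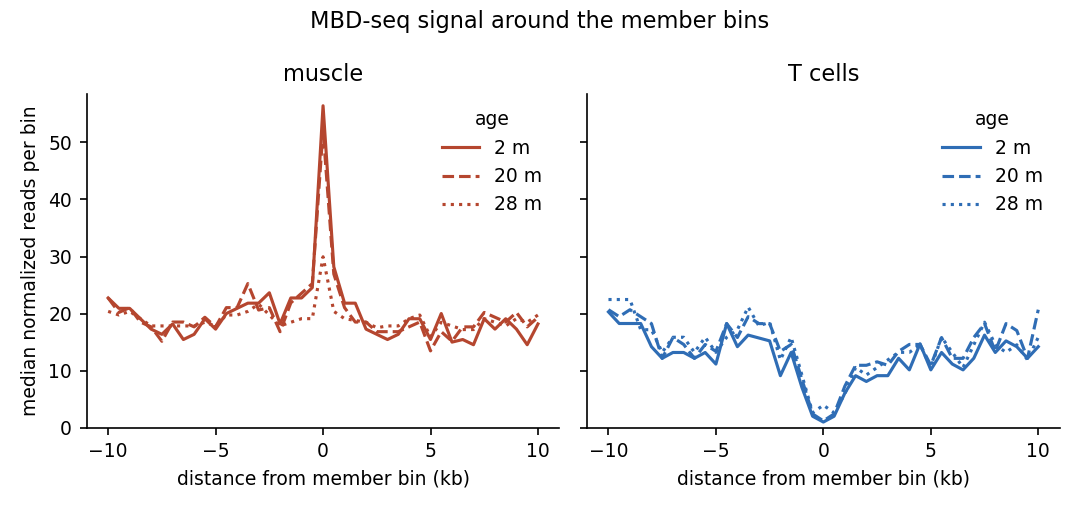
Median normalized count (y axis) of the bins up to 10 kb to each side of the member bins (x axis, kb from the member bin), for muscle and for T cells at 2, 20 and 28 m. The values at 0 for 2 and 20 m chose the bins. In 28-m muscle the median is 30.0 at 0 and 19.1 and 20.4 at 0.5 kb to each side, and in T cells the medians stay below those at 10 kb over several bins to each side.

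The 28-m libraries, which played no part in the choice, kept the order of the tissues. Muscle was higher than T cells in 271 of 273 members (99.3%) and in 68.5% of all autosomal bins, with 1 column per tissue. The lowest, median and highest member had 12.7, 30.0 and 58.6 counts in 28-m muscle and 0, 3.97 and 35.7 in 28-m T cells. In the 2-m libraries that chose them, these values were 40.03, 56.4 and 118 in muscle and 0, 1.02 and 3.05 in T cells, and in the 20-m libraries 40.4, 52.2 and 93.5 and 0, 1.22 and 3.65. The median difference of muscle minus T cells on the log2(count + 1) scale was 2.81 at 28 m (SD over autosomes 0.441). Over all autosomal bins it was 1.03 at 28 m.

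**Figure D4:**
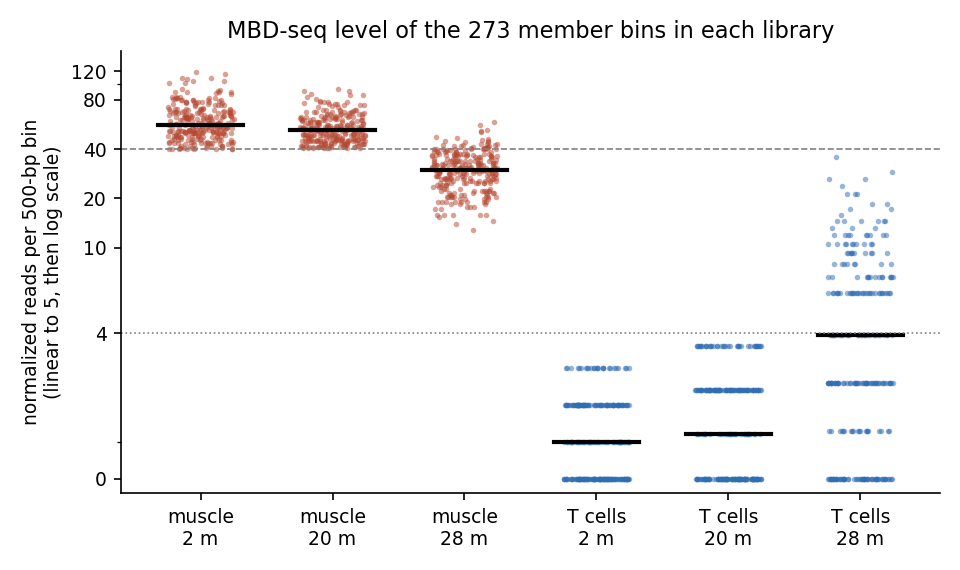
Normalized count (y axis, linear up to 5 and logarithmic above) of each of the 273 member bins in the 6 MBD-seq libraries (x axis), with the median as a bar. The dashed line is the lower limit for muscle (40) and the dotted line the upper limit for T cells (4), both applied at 2 and 20 m only; at 28 m the median is 30.0 in muscle and 3.97 in T cells.

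Muscle signal in the members was lower at 28 m. All 273 were below their 20-m value and 271 below their 2-m value. The median change from 20 to 28 m was -0.84 on the log2 scale (SD over autosomes 0.152), and 33.7% fell more than 2-fold, as did 5.19% of all autosomal bins. The 20-m value was chosen to be high and the 28-m value was not, and bins high in both tissues, chosen alike in muscle, had a median change of -0.75, with 97.7% of them lower and 26.6% more than 2-fold lower. At 28 m, 38 members (13.9%) still had 40 or more, against 40.3% of bins high in both tissues.

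At matched 20-m levels the members had less 28-m signal than bins high in both tissues. For 20-m values from 40 to below 50, the 28-m median was 27.4 in 119 members and 31.9 in the other bins. It was 30.0 (80 members) and 34.4 from 50 to below 60, and 33.5 (66 members) and 38.9 from 60 to below 80. From the 25th to the 75th percentile, members spanned 22.3 to 33.5 in the first of these ranges and the other bins 26.1 to 37.6, so the sets overlapped widely. When each library was rescaled to the same sum, the same 273 bins had a median change of -0.53, and 248 remained lower at 28 m, while bins high in both tissues had -0.43. The size of the fall thus depended on the scaling.

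Among all bins with 40 or more in 2-m and 20-m muscle, those with less T-cell signal had a larger share of RUNX and ETS letters. Members were 0.0596% of these bins, and 95.1% had more than 40 in T cells. For a larger T-cell value of 4 or less, over 4 to 10, over 10 to 20, over 20 to 40 and over 40, the share with ETS letters was 37, 31.2, 21.6, 13.3 and 10.6%. Shares within 1 kb of a start were 18.7, 11.3, 6.08, 2.6 and 2.84%, so they fell with more T-cell signal only up to the class of over 20 to 40. Next to the limit, 122 bins missed the rule by a single T-cell read, with 4 reads in the T-cell library that had more. Their 28-m medians were 29.3 in muscle and 6.61 in T cells, next to 30.0 and 5.29 in the 57 members with 3 reads. With T cells at 4 or less, 45 bins had a lower muscle value from 38 to below 40 and 37 members one from 40 to below 42, and both sets had medians of 28.7 in muscle and 2.64 in T cells at 28 m.

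In T cells the members had more signal at 28 m than at the ages that chose them. The 273 bins together held 299 reads at 2 m (exact Poisson 95% interval 266 to 335), 329 at 20 m (294 to 367) and 1020 at 28 m (958 to 1085). These intervals cover counting error only. The level was above the 20-m value in 74% of members. The median change was 1.15 on the log2(count + 1) scale (SD over autosomes 0.390). More than 2-fold rises were seen in 51.6%, against 12.2% of all autosomal bins. On this scale a step from 0 to 1 read already passes 2-fold, as in the bin at Pfas (1.22). Equal read numbers at both ages can count as above, as at Runx1 (2 reads each, 0.0856). These shares therefore lie near the limit of 1 read. At 28 m, 167 members (61.2%) were at 4 or less, 41 (15%) above 10 and 8 (2.93%) above 20. Of the 40801 autosomal bins with 6 or more CpGs and the same limit of 4 in 2-m and 20-m T cells, whatever their muscle value, 83.5% were at 4 or less at 28 m, 6.21% were above 10 and 40.4% were above their 20-m value. Low values were required at 2 and 20 m and not at 28 m, so the 20-m and 28-m values are not alike in how they were chosen. The reverse bins, chosen low in muscle, had a median muscle change of 1.54 from 20 to 28 m. In muscle 71.4% of them rose more than 2-fold, against 31.2% of all autosomal bins. With the ages exchanged, the 30 bins chosen on 2 and 28 m had a median of 2.43 in the 20-m T cells left out, and the 26 bins chosen on 20 and 28 m a median of 2.03 in 2-m T cells. In these sets 76.7 and 76.9% of the left-out values were at 4 or less, and 13.3 and 0% were above 10. Both sets required low 28-m T-cell values, so they cannot show a rise to 28 m. Both thresholds together, 40 or more in 28-m muscle and 4 or less in 28-m T cells, were met by 20 members (7.33%) and by 0.013% of all autosomal bins.

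The 28-m T-cell signal was compared between locations without a test. Of the 51 members near gene starts, 2 (3.92%) were above 10, while 8 of 42 exonic (19%), 20 of 121 intronic (16.5%) and 11 of 59 intergenic members (18.6%) were. At 4 or less were 68.6% of members near starts and 59.5% of the others, and the 28-m median was 2.64 both near starts and in exons. None of the 22 members in leukocyte-list genes exceeded 10, a small number of bins beside the 15% of all members. The bins with most signal, chosen here after their values were seen, lay between genes, with Aldh1a3 as the nearest coding gene (chr7:66547501-66548000, 0, 1.22 and 35.7 counts in T cells from 2 to 28 m) and Rabl2 as that of the next (chr15:89607501-89608000, 1.02, 3.65 and 29.1). These are 2 of the 8 members above 20, and in the first the T-cell value at 28 m exceeded that of muscle (22.9).

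Muscle RNA of the genes that hold a member changed about as often as that of other genes. Of the 186 genes, 155 were matched in the RNA table by symbol or older symbol, and 130 had a mean of at least 10 normalized counts and were tested (limma, Benjamini-Hochberg over 13183 genes). At 20 against 2 m, 10 (7.69%) were higher and 9 (6.92%) lower, compared with 9.43 and 7.12% of all genes tested. At 28 against 2 m, 14 (10.8%) were higher and 6 (4.62%) lower, compared with 7.53 and 6.24%. At 28 against 20 m none was called, next to 0.212% higher and 0.167% lower among all genes. At an unadjusted p under 0.05 the last comparison gave 14 of 130 (10.8%; 10.6% of all genes), edgeR called 1 gene (Cd82), and DESeq2 and a fit with a replicate block each called 3 (Cd82, Kcnk5 and Runx1). The median log2 change of the 130 genes was -0.06, 0.01 and -0.04 for 20 against 2, 28 against 20 and 28 against 2 m, and over all genes -0.02, 0.00 and -0.01. The counts of 19 and 20 genes were 11 and 13 without replicate 1 of 20 m, and the 20 became 13 without replicate 3 of 2 m and 11 without replicate 1 of 28 m. Rescaling the libraries to the same sum left 6 and 6.

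Runx1 had the largest rise among leukocyte-list genes with a member and is described, like Stk10 and Ptprc, after its values were seen. Its values were 165, 127 and 96.0 normalized counts at 2 m, 284, 530 and 209 at 20 m and 1046, 863 and 706 at 28 m. The 3 ages did not overlap. The log2 change was 1.32 (SE 0.293) at 20 against 2 m (limma, adjusted p = 0.00978) and 2.76 (SE 0.293) at 28 against 2 m (adjusted p = 9.68e-05). For 28 against 20 m it was 1.44 with an adjusted p of 0.0649, which ranged from 0.0033 to 0.278 over 18 alternatives and was under 0.05 in 6. Over the same ages its member bin at the start had 69.1, 64.0 and 40.8 counts in muscle. All 273 members were lower in 28-m than in 20-m muscle, and a link between the bin and the RNA was not tested.

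Of the other 13 listed genes, Stk10 alone passed the limma test, at 20 against 2 m. Dock8 was nearest to the threshold, with 169, 116 and 197 counts at 2 m, 323, 206 and 242 at 20 m and 247, 202 and 281 at 28 m. Its log2 change at 20 against 2 m was 0.68 (SE 0.226, limma adjusted p = 0.0570), and it was called by DESeq2 (adjusted p = 0.0357) and with a replicate block (limma adjusted p = 0.0137, and 0.0256 at 28 against 2 m). Stk10 had 288, 317 and 279 counts at 2 m, 176, 213 and 200.0 at 20 m and 275, 185 and 209 at 28 m, a log2 change of -0.59 (SE 0.168, limma adjusted p = 0.0318; 0.0154 to 0.682 over 18 alternatives, of which 10 kept the call). Ptprc had 185, 68.7 and 140 counts at 2 m, 95.3, 103 and 148 at 20 m and 112, 93.9 and 176 at 28 m. Lcp1 had 519, 256 and 302 at 2 m, 258, 235 and 242 at 20 m and 306, 283 and 317 at 28 m. For Ptprc the 3 ages overlapped, and for Lcp1 the 2-m values spanned those of 28 m, whereas the 20-m values lay below those of 28 m (log2 0.30, SE 0.212, limma adjusted p = 0.669). Arhgap45, counted under its older symbol Hmha1, had 152, 84.6 and 68.6 at 2 m, 56.0, 38.8 and 51.8 at 20 m and 47.4, 116 and 58.5 at 28 m, and its change at 20 against 2 m missed the threshold (log2 -0.97, SE 0.372, limma adjusted p = 0.0930). The 3 tested genes with 3 or more members, Lcp1, Arhgap45 and Arhgap25, gave no call.

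**Figure D5:**
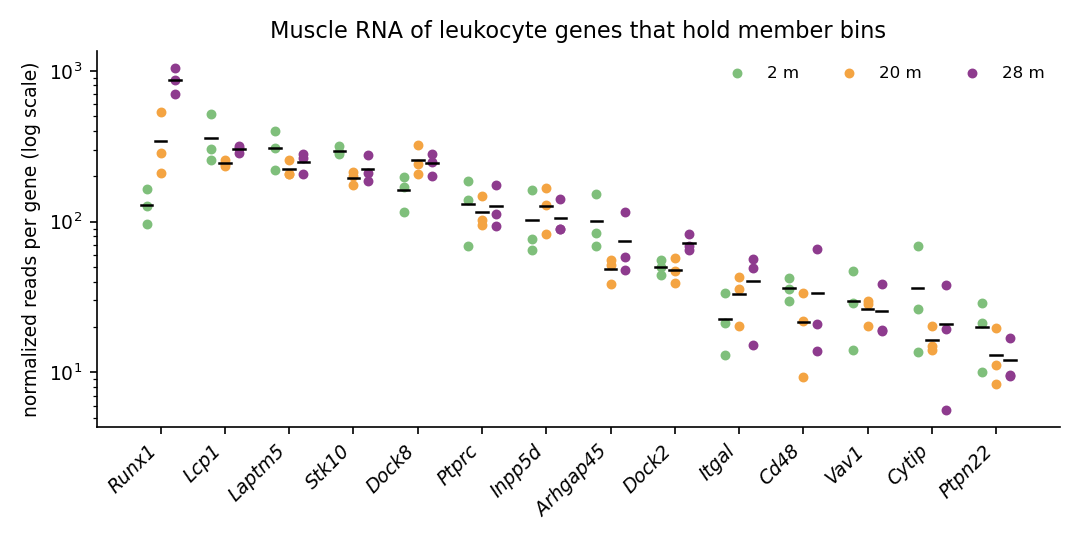
Muscle RNA (y axis, normalized reads per gene, log scale) of the 14 leukocyte-list genes that hold a member bin (x axis), with 1 point per library and the mean of each age as a bar (n = 3). Runx1 rises from 96.0 to 165 at 2 m to 706 to 1046 at 28 m, and the ages of most other genes overlap.

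Among the genes with most members, Zfp697 rose from 24.5, 38.8 and 16.6 counts at 2 m to 80.3, 65.8 and 48.5 at 20 m (log2 1.30, SE 0.351, limma adjusted p = 0.0247; 0.00920 to 0.194 over 18 alternatives, of which 11 kept the call) and stood at 53.1, 59.4 and 67.9 at 28 m (1.22 against 2 m, adjusted p = 0.0373; 0.0135 to 0.263, with the call kept in 7 of 18). The 2-m values did not overlap those of either older age.

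The next 4 genes are named after their values were seen. Unc13d, a priming factor of granule release with a member 745 bp from its start, had 13.4, 1.76 and 5.78 counts at 2 m, 112, 33.7 and 102 at 20 m and 58.8, 82.9 and 66.1 at 28 m. It was higher than at 2 m in all older libraries (limma adjusted p = 0.00202 at 20 m, 0.00252 at 28 m). Pik3cd, the leukocyte phosphoinositide 3-kinase subunit p110 delta, fell from 923, 913 and 803 at 2 m to 521, 618 and 586 at 20 m and 476, 439 and 485 at 28 m. Its log2 change at 28 against 2 m was -0.91 (SE 0.108, limma adjusted p = 0.000179). With the libraries rescaled to the same sum this was no longer called (adjusted p = 0.123), nor was the change at 20 against 2 m (0.504), while the other 17 alternatives kept both calls. Cd82, a tetraspanin, had 470, 300 and 424 counts at 2 m and 729, 772 and 710 at 28 m (0.91, SE 0.156, limma adjusted p = 0.0023), and the potassium channel gene Kcnk5 40.1, 54.6 and 62.1 at 2 m and 133, 149 and 155 at 28 m (1.48, SE 0.262, limma adjusted p = 0.00288). These 4 genes held 1 member each.

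In bulk muscle RNA, fewer cells of a type and less RNA per cell cannot be told apart. The leukocyte list summed to 1989 to 3517 normalized counts at 2 m, 2276 to 2372 at 20 m and 2971 to 3251 at 28 m, beside 9274310 to 11630600 for the 24 skeletal muscle genes over all libraries. In the leukocyte list, 24 genes were tested. At 20 against 2 m 1 rose and 1 fell, and at 28 against 2 m 1 rose. None was called at 28 against 20 m. Runx1 belongs to this list, and its mean went from 341 counts at 20 m to 872 at 28 m. A large part of the higher list sum at 28 m, relative to 20 m, was thus Runx1 alone. The T-cell list was led by Prkcq and Satb1 (means of 4384 and 3948), and its median gene had 4.74. No listed gene was at 0 in all libraries. Marker genes of several cell types changed with age, where 9.43% of all genes were higher and 7.12% lower at 20 against 2 m. In that comparison 7 of 24 skeletal muscle genes rose and 3 fell (6 and 5 at 28 against 2 m), while 3 of 10 macrophage and myeloid, 3 of 6 fibroblast and 3 of 5 adipocyte genes tested fell and none rose, and the fibroblast list summed to 51087 to 106411 at 2 m, 21889 to 24764 at 20 m and 21815 to 29894 at 28 m. The part of these cells and of resident leukocytes in the muscle values was not tested.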

How the data were processed

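MBD-seq (capture of methylated DNA on a methyl-CpG binding domain) and RNA-seq tables were used as deposited. After Trim Galore, the authors mapped the MBD-seq libraries to mm10 (Bowtie2), counted them in 500-bp bins with bedtools and RNA reads per gene with htseq-count, and divided each library by a DESeq2 size factor. The deposited values are thus a normalized signal, not raw counts, and 100% of them were whole multiples of what 1 read is worth (relative tolerance 1e-06). The paper names Hisat2 as RNA aligner and the submitters' processing notes TopHat. The labels give 2 muscle captures per age, and the single muscle column per age does not name either.

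Bins were annotated by their midpoint with RefSeq GRCm38.p6, the build of the files. Exact Poisson intervals cover counting error only. RNA (9 libraries of 33051271 to 121485345 reads, 3 mice per age, age as the only term) was tested with limma 3.58.1 on log2(value + 1) for genes with a mean of 10 or more, adjusted by Benjamini-Hochberg over 13183 genes, with calls at an adjusted p under 0.05. Fold changes on this scale understate those of low genes. On simulated data the test recovered 52.9% of 2-fold and 93.8% of 4-fold changes between 28 and 20 months, with 5 false calls among 13183 genes. Alternatives were DESeq2 1.42.0 and edgeR 4.0.16 with recovered whole reads, other thresholds, scalings, pseudocounts and filters, a replicate block and leaving out each library. Genes were named by rule: the 10 with most members, the 5 longest runs, the 8 listed T-cell or leukocyte genes with most members, the antigen receptor loci, and the largest called RNA changes of genes with 3 or more members, of which there were none. Of the 8 listed genes only Lcp1, Arhgap45 and Cytip held more than 1 member. The others tied at 1 and were taken in alphabetical order. Runx1, Vav1, Ptprc, Stk10 and the genes marked so in the text were named after their values were seen. The members and gene lists were chosen with earlier results of these data known.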

Additional observations from a re-analysis of the deposited data

Results flagged for a closer look

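In the 273 bins the signal of the tissues moved in opposite directions from 20 to 28 months. The median change was -0.84 in muscle and 1.15 in T cells on the log2(count + 1) scale, so that muscle minus T cells was -1.99. The difference was not tested, since the table has 1 column per tissue and age. The bins were chosen as high in 20-month muscle and low in 20-month T cells (3 reads at most). In the reverse bins, chosen as low in muscle and high in T cells, the median change was 1.54 in muscle and -0.05 in T cells. A rise in the tissue chosen as low was thus not particular to these bins.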

How the results depend on the processing

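Main values were median log2 changes from 20 to 28 months of -0.84 in muscle and 1.15 in T cells, 61.2% of members at 4 or less in 28-month T cells and 13.9% at 40 or more in 28-month muscle. With limits of 60 and 2 (12 bins) the changes were -1.13 and 1.54. With limits of 30 and 6 (1019 bins) the muscle change was -0.69 and the shares 52.4 and 7.46%. Choosing bins after rescaling each library to the same sum (1149 bins) gave changes of -0.33 and 0.63 and a share of 70.5% at 40 or more in muscle. A pseudocount of 0.25 gave 1.35 in T cells. With the ages exchanged, an alternative chosen after seeing the data, the T-cell change was 0.0 for bins chosen on 2 and 28 months and 0.0856 for those chosen on 20 and 28 months. These bins were required to be low in 28-month T cells, so these values do not bear on the rise. The cause was not tested.

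Genes with a changed RNA level numbered 19, 0 and 20 for 20 against 2, 28 against 20 and 28 against 2 months. Rescaling to the same sum gave 6, 1 and 6. For 28 against 20 months edgeR gave 1 and DESeq2 3. Genes with 3 or more members gave 0 in each. Without the 3 libraries numbered 3, also chosen after seeing the data, the counts were 14, 0 and 9. Leaving out single libraries gave 11 to 24, 0 to 2 and 11 to 19. For 28 against 20 months the count was 1, 2 and 1 without replicate 1, 2 or 3 of 2 months and 1 without replicate 2 of 20 months. With a replicate block the counts were 24, 3 and 25. Deviations of same-numbered libraries correlated at 0.111, 0.151 and 0.163 for number 3 and at -0.04 to 0.10 for numbers 1 and 2, so the numbers were not taken as pairs. The libraries numbered 3 also stood apart from the others of their age (chi-square per degree of freedom 182 to 454, against 8.57 to 34.8 between numbers 1 and 2). No direction reversed.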
